A study of Mus musculus with 4 samples.

Results

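The genes described here encode subunits of the mitochondrial respiratory chain and of ATP synthase, with a few assembly factors. They were taken by name, as the genes whose symbol starts with Nduf, Uqcr, Cox4, Cox5, Cox6, Cox7, Cox8 or Atp5 and which have a probe set naming no other gene. This gave 80 genes on 149 probe sets, of 12393 genes on 20380 such probe sets. Another 8 probe sets carried such a name together with another gene and were left out. The study collected 4 myeloid populations of C57BL/6J mice, taken from the lamina propria of the large intestine (the tissue beneath the epithelial layer), with no stated treatment or altered gene. CD11chigh dendritic cells (DCs) carried much CD11c and no CD11b. Both CD11c and CD11b marked the CX3CR1high macrophages, which had much of the fractalkine receptor CX3CR1, and the CX3CR1- cells, which lacked it. The CD11b+ cells had CD11b but not CD11c. The abbreviation DCs is kept below for the CD11chigh cells, although the label of the CX3CR1- cells contains DC as well. Each population was measured on 1 Affymetrix 3' array, and the labels used here do not state the number or age of the mice behind it.

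The respiratory chain lies in the inner mitochondrial membrane. Complex I takes electrons from NADH, complex III passes them from ubiquinol to cytochrome c, and complex IV hands them to oxygen, while all 3 pump protons. ATP synthase lets the protons back through a turning ring in its membrane part, Fo, and makes ATP in its head, F1. Each of the 4 is built from nuclear-encoded subunits, which are the genes measured here, and from subunits encoded in mitochondrial DNA, which are not analysed here. In myeloid cells, the balance between this chain and glycolysis is known to shift as macrophages and DCs are activated.

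No population had a replicate array, and therefore no value has an SD or a test. How precise a ratio is depends on these few arrays. Values are signals in linear intensity units on the authors' scale. Signals under the floor, the pooled median signal of 103, were raised to it, which makes a ratio with 1 such side a lower bound, and calls were made at 2-fold. Error can be judged only from genes with several probe sets on the same arrays. Their log2 ratios had an SD of 0.31 to 0.52 over the 6 pairs of populations, and it leaves out differences between mice. The median signal was 88.5 in the DCs and 103 to 110.2 in the others. The 3' over 5' signal of the Gapdh controls is known to rise with RNA breakdown. It was 0.791 in the DCs against 1.08 in CX3CR1high macrophages, 2.17 in CD11b+ cells and 3.40 in CX3CR1- cells. The genes of the surface markers followed the labels in part. Only in the DCs did Itgam (CD11b) lie under the floor, and Cx3cr1 was highest in the CX3CR1high macrophages, but Cx3cr1 was also above the floor in the CX3CR1- cells, at 291, and was under it only in the DCs. Itgax (CD11c) stood at 5893 in the DCs and 8412 in CX3CR1- cells, and was about equal in the CD11b+ cells (1864) and the CX3CR1high macrophages (1826).

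Most respiratory chain and ATP synthase genes had their highest signal in the CD11chigh DCs. The median member stood 1.54-fold above the CX3CR1high macrophages, 1.73-fold above the CD11b+ cells and 1.60-fold above the CX3CR1- cells. Of 75 members at or above the floor in all 4 arrays, 65 were highest in the DCs, 0 in CX3CR1high macrophages, 3 in CD11b+ cells and 7 in CX3CR1- cells. Among all 5881 genes at or above the floor in all arrays, 35.8% were highest in the DCs, 23% in CX3CR1high macrophages, 21.1% in CD11b+ cells and 20.2% in CX3CR1- cells. Among abundant genes, those with a mean signal of 1000 or more, the share was 39.2%. With the arrays scaled to equal medians, 94.7% of the members and 49.2% of all genes were highest in the DCs. Fewer cells of a type and less RNA per cell cannot be told apart in such bulk samples. Another 3 members were under the floor in some arrays and 2 in all 4.

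The shift was broad rather than large. Over 77 members with a ratio in each pair with the DCs, 16, 20 and 19 were at least 2-fold higher in the DCs than in the CX3CR1high macrophages, the CD11b+ cells and the CX3CR1- cells, and 0 were 2-fold lower. Over all genes with a ratio, 10.2%, 10.4% and 8.7% were 2-fold higher and 17.4%, 17% and 13.7% lower, in the same order. At 1.5-fold, 41, 48 and 44 members were higher and 2, 3 and 3 lower, against 22.5%, 21.7% and 20.3% and 26.2%, 27.8% and 24.1% of all genes. Of abundant genes, 13.4%, 13.4% and 10.1% were higher at 2-fold and 28.5%, 26.3% and 21.7% at 1.5-fold. The median log2 ratio was 0.62, 0.79 and 0.68 over the members, -0.02, -0.07 and -0.04 over all genes and 0.10, 0.05 and -0.03 over abundant genes. The 3 comparisons share the DC array. A high DC signal on that array therefore enters all 3, and their counts are not independent of each other. The scaling of the arrays matters for the counts: with equal medians, 36, 42 and 34 members were 2-fold higher, and the median log2 ratio of all genes moved to 0.27, 0.22 and 0.16. The members' median log2 ratio then exceeded that of abundant genes by 0.52, 0.72 and 0.71, against 0.52, 0.74 and 0.71 on the deposited scale. Scaling an array shifts both medians by the same amount, apart from signals at the floor, so this likeness is no check of the result. No member reached 4-fold in any of them.

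In 9 members the DC signal was at least 2-fold above each of the other populations. The share of all genes at this limit was not counted. At 1.5-fold, 31 of the 75 members lay above the highest other population. The shares were 12.2% of all genes at or above the floor in all arrays and 14.6% of abundant genes. Of the 9, 4 belong to complex I and 4 to ATP synthase, and 1 to complex III. The gap between the DCs and the highest of the others was widest for Uqcrfs1, Ndufa6, Atp5e and Atp5o, as the plot of their signals shows. In each of the 9, the signals of the other populations lay within 1.6-fold of each other. Of the 9, 4 (Atp5o, Ndufab1, Ndufs4 and Ndufs8) had further probe sets at or above the floor in all arrays. Of these 8 probe sets, 7 were highest in the DCs and 0 were 2-fold or more above all 3 others. Outside the 9, some probe sets that were not taken did pass this limit. In the order CX3CR1high macrophages, CD11b+ cells and CX3CR1- cells, the DC ratios on such a set were 3.56, 3.77 and 3.90 for Ndufb11. They were 2.25, 2.62 and 2.82 for Ndufb2, 2.24, 2.51 and 2.43 for Ndufb5 and 2.44, 2.08 and 2.35 for Cox7a2l. Which members make up the 9 thus depends on the probe set taken.

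**Figure D1:**
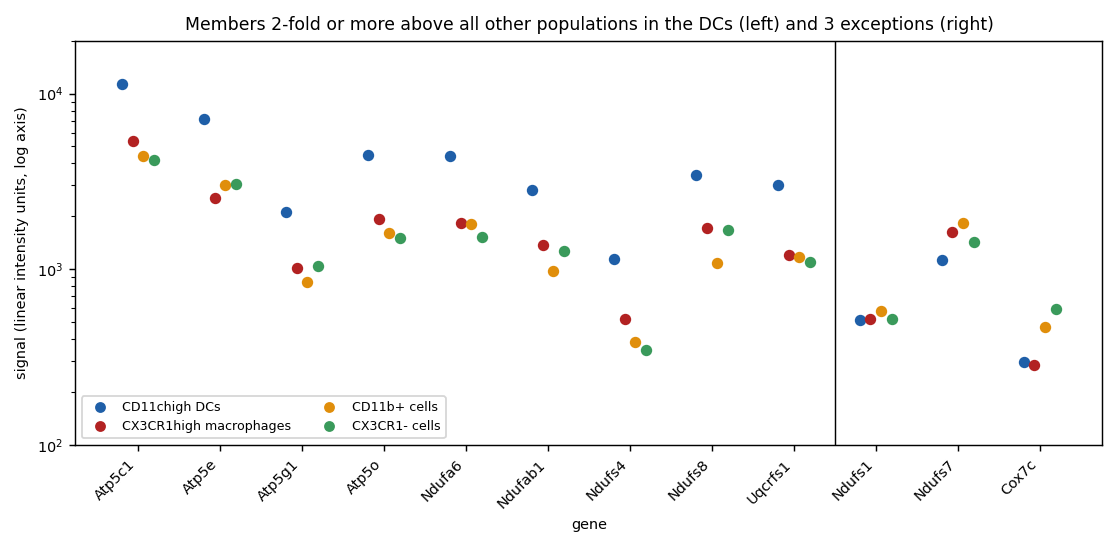
Signals in linear intensity units (log axis) of the 9 genes that were at least 2-fold higher in the DCs than in each other population, and of 3 members that were not highest there, with 1 point per array and no error bars because each population has 1 array. Uqcrfs1 stands at 3013 in the DCs and between 1100.1 and 1202 in the others, while Ndufs7 is lowest in the DCs at 1125.

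Complex I has a core of catalytic subunits and a larger set of accessory subunits that hold it together. Of its 33 measured subunits, 28 were highest in the DCs. The accessory subunits had median log2 ratios of 0.73, 0.89 and 0.73 over the CX3CR1high macrophages, the CD11b+ cells and the CX3CR1- cells. The core subunits had 0.35, 0.27 and 0.47. At 2-fold, 6, 8 and 7 of 27 accessory and 1, 1 and 1 of 6 core subunits were higher in the DCs. The shares of all genes were 10.2%, 10.4% and 8.7%. The core count is Ndufs8 alone in each pair, and its probe sets disagree. The difference between the core and the accessory lists has no test with 1 array per population.

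Ndufs4, an accessory subunit whose loss causes Leigh syndrome in humans, had the widest range of the accessory subunits, at 1147 in the DCs against 518 in CX3CR1high macrophages, 385 in CD11b+ cells and 349 in CX3CR1- cells. The DC signal was 2.21, 2.98 and 3.29 times the others. Ndufa6, which binds the mitochondrial acyl carrier protein within complex I, stood at 4411 in the DCs against 1839 in CX3CR1high macrophages, 1806 in CD11b+ cells and 1531 in CX3CR1- cells. The acyl carrier protein itself, Ndufab1, stood at 2831 in the DCs against 1370.1 in CX3CR1high macrophages, 977 in CD11b+ cells and 1266 in CX3CR1- cells. In these 3 genes the DC signal lay clear of the other populations, and the CD11b+ or CX3CR1- cells were lowest. Ndufb11, an X-linked subunit of the membrane arm, stood at 11553 in the DCs against 4475 in CX3CR1high macrophages, 5741 in CD11b+ cells and 6398 in CX3CR1- cells. Ndufa10 stood at 2262 in the DCs against 1229.9 in CX3CR1high macrophages, 881 in CD11b+ cells and 956 in CX3CR1- cells, and Ndufb2 at 1863 in the DCs against 958 in CX3CR1high macrophages, 799 in CD11b+ cells and 856 in CX3CR1- cells. All 3 were highest in the DCs, and the 3 other populations lay closer to each other than to the DCs. Ndufa9, which sits near the quinone site, had 2577, 1439, 1126 and 1495 in the same order of populations. Ndufa3 had 6097, 2927, 3144 and 3551, and Ndufb6 had 3005, 1582, 1610.1 and 1255. Each was 2-fold higher in the DCs than in 1 other population. Ndufa7 had 4568, 2746, 2616 and 2249.7, with a ratio of 2.03 over the CX3CR1- cells that lies just inside the limit, and Ndufb9, just outside it at 1.93, had 4107, 2822, 2623 and 2123. Ndufb1 had 610.4, 286, 239.9 and 429.5, so that the CX3CR1- cells came second. Ndufa12, the accessory subunit nearest the median of its group, had 2024, 1394, 1051 and 1209.

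Among the core subunits, Ndufs8, which carries iron-sulfur clusters on the way to ubiquinone, had the highest DC ratios. It stood at 3424 in the DCs against 1710.2 in CX3CR1high macrophages, 1085 in CD11b+ cells and 1662 in CX3CR1- cells. Of its 6 probe sets, 5 were highest in the DCs, and the dimmest, with 150.2 in the DCs against 256 in CX3CR1- cells, was not. Ndufs3, nearest the median of the core, stood at 1386 in the DCs against 1057 in CX3CR1high macrophages, 1199 in CD11b+ cells and 859 in CX3CR1- cells. Ndufv2, an iron-sulfur subunit of the NADH-binding module, stood at 3027 in the DCs against 2019 in CX3CR1high macrophages, 1935 in CD11b+ cells and 1888 in CX3CR1- cells. On these probe sets both were highest in the DCs, with ratios from 1.16 to 1.61 for Ndufs3 and up to 1.60 for Ndufv2. On the other probe sets of Ndufv2 the CX3CR1- cells were highest, with 2639 against 2558 in the DCs on one and 2402 against 2058 on the other. Ndufv1, which binds NADH, was also highest in the DCs, at 1438, 1159, 1145 and 1197 in the same order. Ndufs1, which carries further iron-sulfur clusters of that module, stood at 515 in the DCs against 521 in CX3CR1high macrophages, 581 in CD11b+ cells and 523 in CX3CR1- cells. Its 4 signals lay within 1.13-fold. Ndufs7, the subunit that gives electrons to ubiquinone, went the other way. It stood at 1125 in the DCs against 1637 in CX3CR1high macrophages, 1835 in CD11b+ cells and 1421 in CX3CR1- cells, and the DCs were lowest, 1.46-fold under the CX3CR1high macrophages and 1.63-fold under the CD11b+ cells. Its other probe set had signals of 1065, 1564, 1265 and 727 in the same order. On both, the DCs lay under the CX3CR1high macrophages and the CD11b+ cells, and on the second they lay above the CX3CR1- cells.

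Of the complex I assembly factors, all 5 measured had a higher signal in the DCs than in each other population. Ndufaf3 stood at 552 in the DCs against 331 in CX3CR1high macrophages, 294 in CD11b+ cells and 217 in CX3CR1- cells, and Ndufaf1 at 307 in the DCs against 197 in CX3CR1high macrophages, 179.8 in CD11b+ cells and 132 in CX3CR1- cells. Both were 2-fold higher in the DCs than in the CX3CR1- cells, where their signals were lowest. Ndufaf5 reached the floor in the DCs only, at 179.9, which makes the DC signal at least 1.75-fold higher than in any other population. Ndufaf4 had 595, 302, 383 and 458 and Ndufaf7 189, 132, 177 and 178, in the order DCs, CX3CR1high macrophages, CD11b+ cells and CX3CR1- cells. The lowest of these signals lie near the floor.

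**Figure D2:**
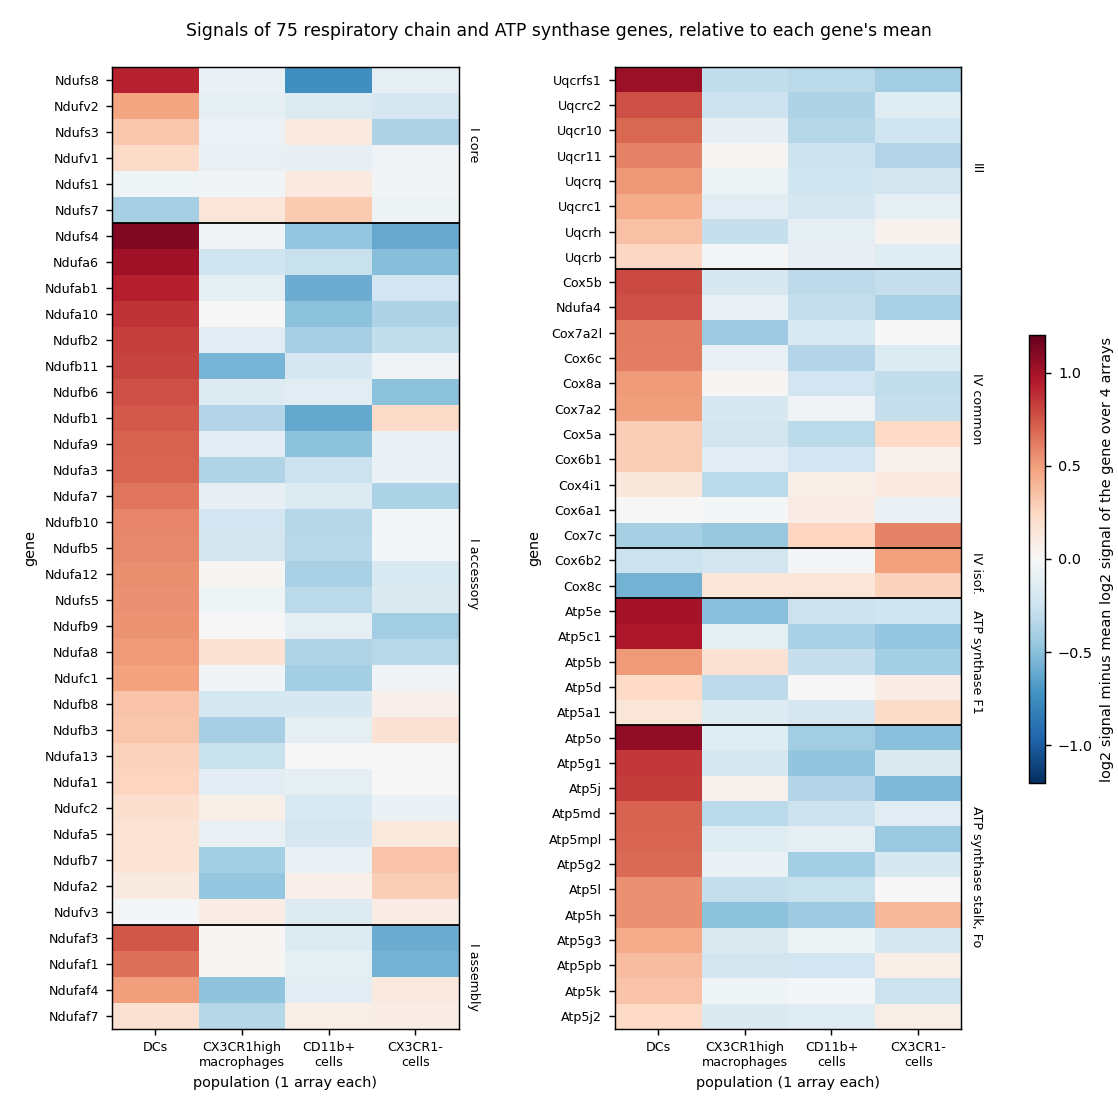
Signals of the 75 members at or above the floor in all 4 arrays, as log2 signal minus the gene's mean log2 signal over the 4 arrays (colour), with 1 column per population (1 array each) and genes grouped by complex. The DC column is the highest in 65 of the 75 genes, and Ndufs7, Ndufs1, Ndufv3, Cox6a1, Cox7c, Cox6b2 and Cox8c are among the 10 that differ.

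All 8 complex III subunits were highest in the DCs. At 2-fold, 2, 3 and 1 of them were above the CX3CR1high macrophages, the CD11b+ cells and the CX3CR1- cells. The shares of all genes were 10.2%, 10.4% and 8.7%, and 1 of 8 lies near the last of these. Uqcrfs1, the Rieske iron-sulfur protein that takes electrons from ubiquinol, stood at 3013 in the DCs against 1202 in CX3CR1high macrophages, 1176 in CD11b+ cells and 1100.1 in CX3CR1- cells. The DC ratios were 2.51, 2.56 and 2.74, and the 3 other populations lay within 1.1-fold. Uqcrc2, a core protein of the matrix side, stood at 4036 in the DCs against 1967 in CX3CR1high macrophages, 1829 in CD11b+ cells and 2127 in CX3CR1- cells. The small subunit Uqcr10 stood at 2505 in the DCs against 1452 in CX3CR1high macrophages, 1229 in CD11b+ cells and 1315 in CX3CR1- cells, and on this probe set was 2-fold higher in the DCs than in the CD11b+ cells only. Uqcr11, nearest the median of complex III, had 2769, 1851, 1544 and 1437 in the same order. Uqcrb, a small subunit near the ubiquinone site, had 20480.3, 17122, 16153 and 15613. Its other probe set had 4358, 2352, 1730.2 and 1593, so that the DC ratio depended on the probe set while the DCs were highest on both.

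Complex IV has subunits found in most tissues and isoforms restricted to muscle, lung, testis or other tissues. Of 11 common subunits, 9 were highest in the DCs, with median log2 ratios of 0.52, 0.62 and 0.63. Ndufa4, named for complex I and later assigned to complex IV, stood at 6480.3 in the DCs against 3558 in CX3CR1high macrophages, 3103 in CD11b+ cells and 2899.8 in CX3CR1- cells. Cox5b, a zinc-binding subunit, stood at 6755 in the DCs against 3409 in CX3CR1high macrophages, 3135 in CD11b+ cells and 3209.9 in CX3CR1- cells. Cox7a2l stood at 4987 in the DCs against 2397 in CX3CR1high macrophages, 2848 in CD11b+ cells and 3223 in CX3CR1- cells. Each was 2-fold higher in the DCs than in at least 1 other population, and Cox5b lay just outside the limit over the CX3CR1high macrophages (1.98-fold). All 4 probe sets of Cox5b at or above the floor in all arrays were highest in the DCs, at 1.17 to 2.15-fold over the CD11b+ cells, and the one taken gave the largest ratio. Cox7a2 was nearest the median of the group, with 12037, 7437, 8248 and 7014 in the same order. Cox5a had 13917, 9704, 9071 and 13386, with the CX3CR1- cells close to the DCs. Cox4i1, the common form of a subunit that regulates the complex, had 10691, 7784, 10256 and 10532, and there only the CX3CR1high macrophages stood apart, below the others. Cox6b1 had 10414, 7797, 7262 and 8810.1 and Cox8a 6324, 4469.9, 3789.9 and 3604, and both were highest in the DCs.

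There were 2 common complex IV subunits that did not follow. Cox6a1 stood at 24448 in the DCs against 24052 in CX3CR1high macrophages, 26099.8 in CD11b+ cells and 23178 in CX3CR1- cells, within 1.13-fold of each other. Cox7c stood at 297 in the DCs against 284 in CX3CR1high macrophages, 467 in CD11b+ cells and 591 in CX3CR1- cells. It was highest in the CX3CR1- cells and about equal in the DCs and the CX3CR1high macrophages. It was also the only member that differed 2-fold between 2 populations other than the DCs, at 2.08-fold between the CX3CR1- cells and the CX3CR1high macrophages.

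The restricted isoforms were at or near the floor. Cox4i2, known from lung, and Cox8b, known from muscle and brown fat, were under it in all 4 arrays, and their highest signals were 56.4 and 24.7. Cox6a2, a heart and muscle form, reached 124 in CD11b+ and 124 in CX3CR1- cells and did not reach the floor elsewhere. Cox7a1, another muscle form, was above the floor in the CX3CR1high macrophages only (199), at least 1.93-fold over each other population. Cox6b2 stood at 183 in the DCs against 187 in CX3CR1high macrophages, 216 in CD11b+ cells and 308 in CX3CR1- cells, and Cox8c at 113 in the DCs against 185 in CX3CR1high macrophages, 185 in CD11b+ cells and 202 in CX3CR1- cells. Both are known from testis, and neither was higher in the DCs. In each isoform family with a restricted form, the common form (Cox4i1, Cox6a1, Cox6b1, Cox7a2, Cox8a) was well above the floor in all 4 populations. Levels of different genes were not compared, since probe sets differ in how brightly they bind.

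Nearly all ATP synthase subunits had their highest signal in the DCs. Of its 17 measured subunits, 16 were highest in the DCs. At 2-fold, 6, 6 and 6 were above the CX3CR1high macrophages, the CD11b+ cells and the CX3CR1- cells. The shares of all genes were 10.2%, 10.4% and 8.7%. In F1, the median log2 ratios were 0.55, 0.79 and 0.92. Atp5c1, the gamma subunit that forms the turning shaft, stood at 11396 in the DCs against 5388 in CX3CR1high macrophages, 4427 in CD11b+ cells and 4208 in CX3CR1- cells. Atp5e, the epsilon subunit at its foot, stood at 7196 in the DCs against 2530.4 in CX3CR1high macrophages, 2997 in CD11b+ cells and 3054 in CX3CR1- cells. The DC ratios were 2.11, 2.57 and 2.71 for Atp5c1 and 2.84, 2.40 and 2.36 for Atp5e. The catalytic beta subunit Atp5b was nearest the median of F1, at 6003, 4771, 3478 and 3178 in the same order. The alpha subunit Atp5a1 was the exception, with 4674, 3805, 3676 and 4932, and was highest in the CX3CR1- cells on this probe set.

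In the stalk and the membrane part, all 12 measured subunits were highest in the DCs, with median log2 ratios of 0.81, 0.89 and 0.75. Atp5o, the protein that ties the outer stalk to the head, had the widest range of these, at 4495 in the DCs against 1934 in CX3CR1high macrophages, 1609 in CD11b+ cells and 1513 in CX3CR1- cells. Atp5j, known as coupling factor F6, stood at 5802 in the DCs against 3362 in CX3CR1high macrophages, 2539 in CD11b+ cells and 2246 in CX3CR1- cells. Atp5h, another stalk subunit, stood at 12989.7 in the DCs against 6324 in CX3CR1high macrophages, 6566 in CD11b+ cells and 11623 in CX3CR1- cells. The first 2 were lowest in the CX3CR1- cells, while for Atp5h the CX3CR1- cells came close to the DCs on this probe set. On its other probe set Atp5h had 10804 in the DCs and 5630.1 in CX3CR1- cells. Small membrane subunits were Atp5md with 1869, 917, 960.4 and 1044 and Atp5mpl with 5515, 3068, 3130.0 and 2492, in the same order. Each was 2-fold higher in the DCs than in 1 other population.

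The ring that turns is built of the c subunit, which 3 genes encode with the same mature protein and different import signals. All 3 were highest in the DCs. Atp5g1 stood at 2117 in the DCs against 1020.2 in CX3CR1high macrophages, 846 in CD11b+ cells and 1039 in CX3CR1- cells. Atp5g2 had 4268, 2522, 2014 and 2329.7 in the same order, and Atp5g3 had 11827, 7675, 8321 and 7511. The DC ratios were 2.08, 2.50 and 2.04 for Atp5g1, 1.69, 2.12 and 1.83 for Atp5g2 and 1.54, 1.42 and 1.57 for Atp5g3. Atp5g3 thus had the smallest ratio in each pair, a difference that has no test here.

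The other 3 populations differed little from each other in these genes. The median log2 ratio of the members was 0.07 for CX3CR1high macrophages over CD11b+ cells, 0.00 over CX3CR1- cells and 0.10 for CX3CR1- cells over CD11b+ cells. At 2-fold, 0 members were higher in each of these pairs, and Cox7c was the only one lower. Over all genes, 4.66%, 8.56% and 3.55% were 2-fold higher in these pairs and 5.83%, 6.54% and 5.19% lower. Of the 75 members above the floor everywhere, 65 lay within 1.5-fold over these 3 populations, against 54.2% of all genes above the floor and 56.7% of abundant genes. At 1.5-fold, 2 members were higher and 1 lower in CX3CR1high macrophages against CD11b+ cells (all genes, 13.2% and 14.2%). Against the CX3CR1- cells they were 3 and 6 (all genes, 19.2% and 15.9%). For CX3CR1- over CD11b+ cells, 3 were higher and 0 lower (all genes, 9.45% and 13.7%). Lower in CX3CR1high macrophages than CX3CR1- cells were Cox7c, Atp5h (on 1 of its probe sets), Ndufa2, Ndufb7, Cox6b2 and Ndufaf4, and those higher Atp5b, Ndufaf3 and, as a bound, Cox7a1.

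**Figure D3:**
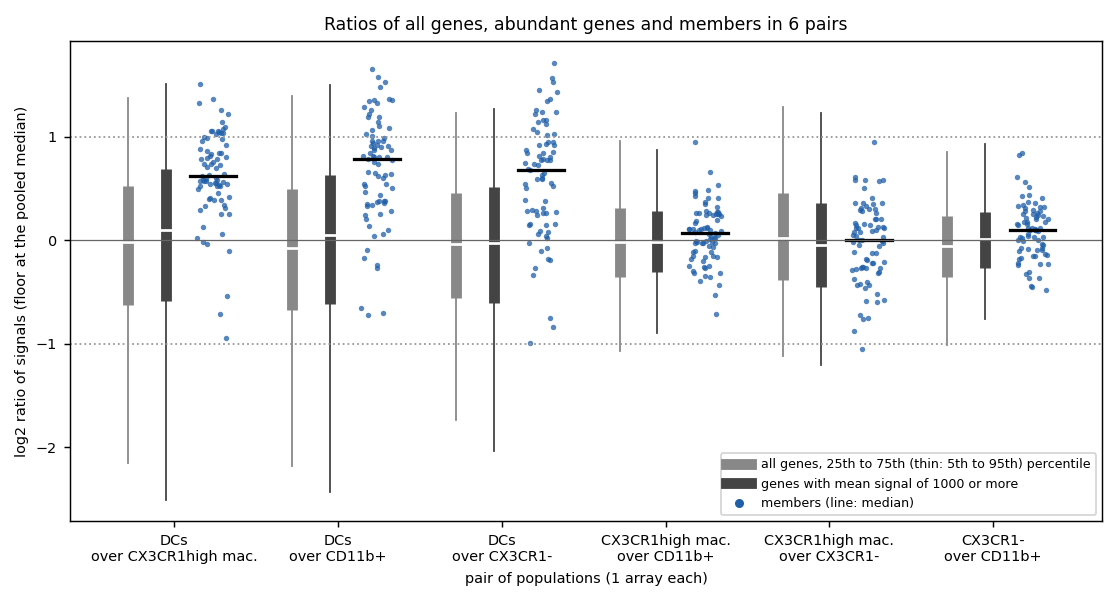
Log2 ratios of signals in the 6 pairs of populations (1 array each), with all genes and genes of mean signal 1000 or more as bars (25th to 75th percentile, thin line 5th to 95th, white mark the median) and members as points with their median as a black line. Member medians are 0.62, 0.79 and 0.68 in the 3 DC pairs and 0.07, 0.00 and 0.10 in the others; dotted lines mark 2-fold.

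Several genes have more than 1 probe set, which gives a check within the arrays. Of 129 member probe sets at or above the floor in all 4 arrays, 113 were highest in the DCs. Of 36 members with several such probe sets, 34 had each of them higher in the DCs than the mean log2 of the 3 others. The exceptions were Ndufs7 and Ndufs8. For Ndufs8, the probe sets ranged from 0.668 to 3.16 for DCs over CD11b+ cells. Ndufb6, Ndufs4 and Ndufv2 had probe sets of opposite direction, at least 2-fold apart, between the CX3CR1high macrophages and the CX3CR1- cells, and by this measure in no pair with the DCs. Of the 10 members that were not highest in the DCs, 4 had a further probe set above the floor. In 3 of these, Atp5a1, Cox6a1 and Ndufb7, a further one was highest in the DCs. Atp5a1 had 2 further probe sets, and on 1 of them the CX3CR1- cells were highest (387 against 352 in the DCs). Probe sets of 1 gene share the RNA and the array, so they are no replicates of a population.

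The ratio varied with signal level among the members. Split by mean signal into groups of 25, the median DC fold over the mean of the 3 others was 1.67 in the lowest, 1.87 in the middle and 1.32 in the highest group. Across the 75 members, Spearman's rho between mean signal and this ratio was -0.18, and across 5881 genes it was -0.01. These are descriptions across genes that share the same arrays. The members spread less than genes at large, with an SD of the log2 ratio of 0.47 against 0.95.

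**Figure D4:**
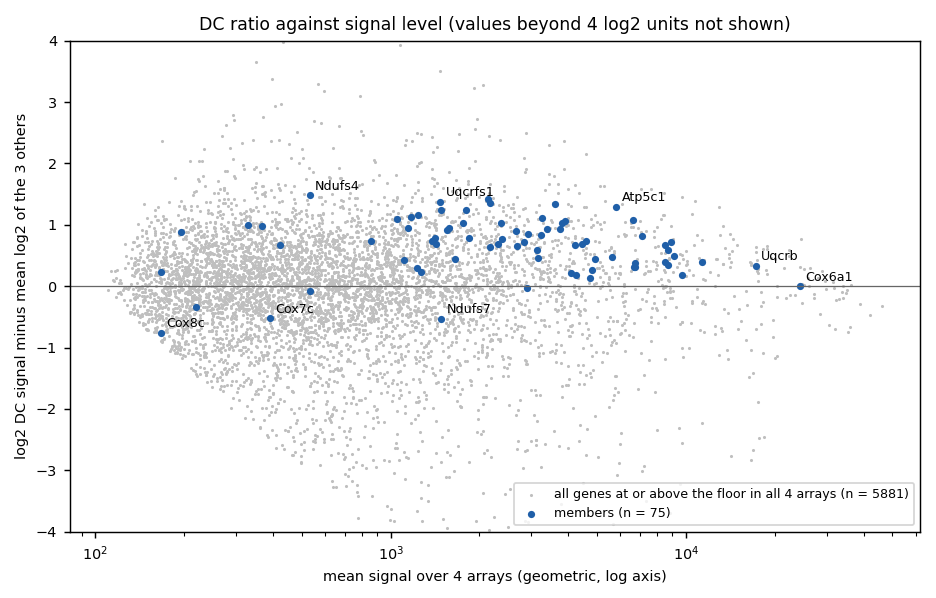
Log2 DC signal minus the mean log2 signal of the 3 other populations (1 array each) against the mean signal over the 4 arrays (log axis), for all 5881 genes at or above the floor in all arrays (grey) and the 75 members (blue). Most members lie above 0 over the whole range of signals, and Ndufs7, Cox7c and Cox8c lie below it.

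Other mitochondrial genes were counted beside the members. Import and chaperone genes were higher in the DCs by a like amount, with median log2 ratios of 0.80, 0.70 and 0.71 over the CX3CR1high macrophages, the CD11b+ cells and the CX3CR1- cells. Of 12 measured, 8, 8 and 8 were 1.5-fold higher and 0 lower. Of all genes, 22.5%, 21.7% and 20.3% were 1.5-fold higher and 26.2%, 27.8% and 24.1% lower. Electron carriers had medians of 0.47, 0.81 and 0.77, and Cycs, cytochrome c, stood at 12211 in the DCs against 5624 in CX3CR1high macrophages, 5712 in CD11b+ cells and 6161 in CX3CR1- cells. Carriers of the mitochondrial membranes had 0.48, 0.66 and 0.71, led by the ADP/ATP carriers Slc25a4 (2934, 1277, 989 and 1443 in the same order) and Slc25a5 (7504, 4852, 2586 and 3632), while the phosphate carrier Slc25a3 was near equal (12609, 12926, 11710.5 and 13201). Complex II, which feeds electrons from succinate and pumps no protons, had lower medians of 0.37, 0.38 and 0.42 over 6 genes, which include the assembly factors Sdhaf1 and Sdhaf2. Its 4 subunits Sdha, Sdhb, Sdhc and Sdhd ranged from 0.844 to 1.55 over the 3 pairs, and its assembly factor Sdhaf2 reached 3.72-fold over the CX3CR1- cells. Complex IV assembly factors had 0.60, 0.44 and 0.28, with 5, 4 and 3 of 9 1.5-fold higher and 1, 1 and 0 lower. The shares of all genes are those given above beside the import genes.

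Genes that keep and transcribe mitochondrial DNA and regulate the chain's genes did not share the shift. Their median log2 ratios were 0.10, -0.33 and -0.11. At 1.5-fold, 2, 1 and 1 were higher and 2, 3 and 2 lower of 14, 13 and 13 with a ratio. The shares of all genes were 22.5%, 21.7% and 20.3% higher and 26.2%, 27.8% and 24.1% lower. Tfb2m, a mitochondrial transcription factor, stood at 465 in the DCs against 201 in CX3CR1high macrophages, 199 in CD11b+ cells and 238 in CX3CR1- cells. Nrf1, a nuclear activator of many respiratory chain genes, stood at 140.0 in the DCs against 174 in CX3CR1high macrophages, 243 in CD11b+ cells and 299.5 in CX3CR1- cells, and Polg, the polymerase of mitochondrial DNA, at 199 in the DCs against 340.2 in CX3CR1high macrophages, 422 in CD11b+ cells and 215 in CX3CR1- cells. On the deposited scale Tfb2m was highest in the DCs, and both others were lowest there. The coactivator Ppargc1a was under the floor in all 4 arrays, and Gabpa, another activator of these genes, had 749.6, 559.9, 504 and 541 in the same order.

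**Figure D5:**
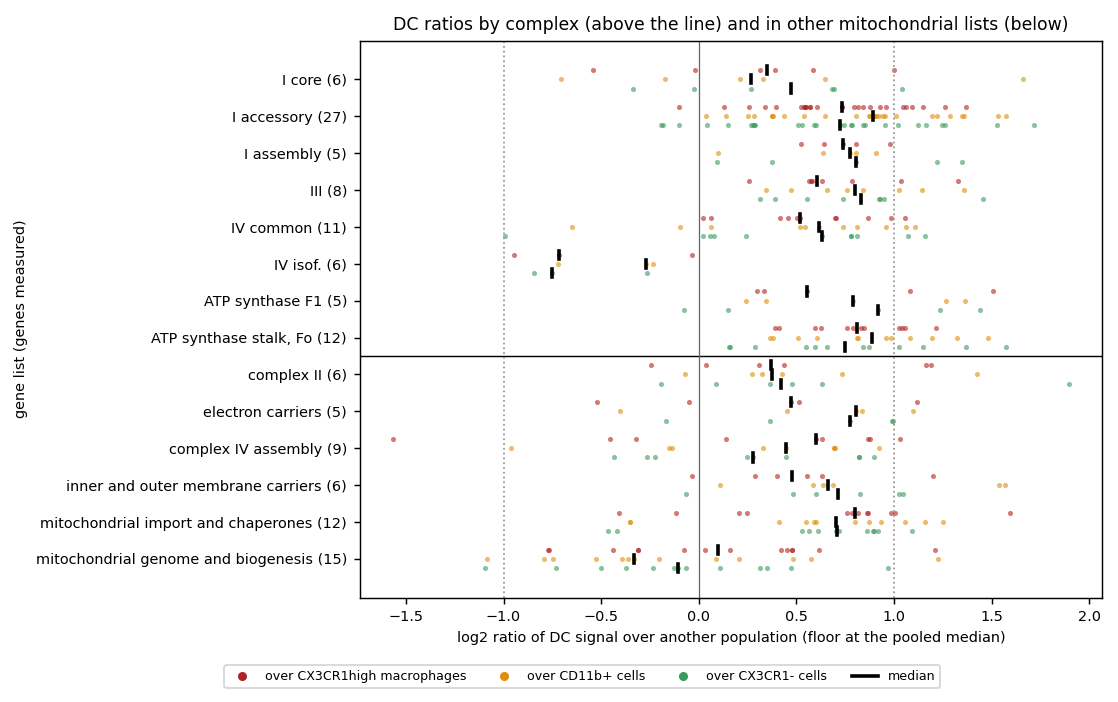
Log2 ratios of the DC signal over each other population (colours, 1 array each) for the members by complex (above the line) and for other mitochondrial lists (below), 1 point per gene with the median as a black mark. Medians of the accessory complex I subunits are 0.73, 0.89 and 0.73, and those of the mitochondrial genome and biogenesis list 0.10, -0.33 and -0.11.

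Since so many members were higher in 1 population, the sequence before their start sites was searched for words of factors known to act on respiratory chain genes. Windows of 250 bases before the start, from RefSeq on GRCm38.p6, were found for 67 of the 80 members. Both strands were searched for the NRF1 word GCGCATGCG, its looser form GCGCNTGCG, which includes it, the ETS word CCGGAAG as bound by GABPA, the YY1 word AAGATGGCG, CCAAT and TATAAA. The strict NRF1 word was in 6 members (8.96%), against 2.75% of 9882 array genes with a window and 3.53% of abundant ones. Its looser form was in 19.4%, 10.3% and 14.6% of the same groups. The ETS word was in 17.9%, 12.9% and 17.5%. The YY1 word was in 1 member (1.49%), 1.17% of array genes and 1.58% of abundant ones. CCAAT was in 38.8%, 39.8% and 39.5%, and TATAAA in 8.96%, 10.7% and 9.39%. Among those above the floor in all 4 arrays, members with and without the ETS word had similar DC ratios over the mean of the 3 others, with median folds of 1.66 (12 members) and 1.64 (52). With the strict NRF1 word they were 1.60 (6) and 1.67 without it (58), and with the looser form 1.66 (13) and 1.61 without it (51). A word is a description of the letters, not a site bound in these cells.

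Of the 9 members at least 2-fold higher in the DCs than in each other population, 2 had an NRF1, ETS or YY1 word in the window. Over the 67 members with a window, 19.4% had the looser NRF1 word, 17.9% the ETS word and 1.49% the YY1 word. These shares are for single words, whereas the 2 of 9 is for any of the 3, a share that was not counted. Such words were thus not particular to these 9, and a link to the DC signal was not tested. As examples, the windows of the 2 are shown with that of Ndufs7, a core subunit that was lowest in the DCs, which holds none of the 3 words. Each runs 5′ to 3′ along the gene and ends at the base before the start site, with the NRF1 or ETS word in capitals.
Atp5c1 (chr2:10080433-10080682, minus strand, GRCm38.p6, looser NRF1 word on the other strand): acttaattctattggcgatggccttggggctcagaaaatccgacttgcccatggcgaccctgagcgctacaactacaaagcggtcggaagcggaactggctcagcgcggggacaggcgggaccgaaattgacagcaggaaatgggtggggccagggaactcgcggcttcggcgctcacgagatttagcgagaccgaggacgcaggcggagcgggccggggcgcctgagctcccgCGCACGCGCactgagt
Atp5e (chr2:174464102-174464351, minus strand, GRCm38.p6, ETS word on the other strand): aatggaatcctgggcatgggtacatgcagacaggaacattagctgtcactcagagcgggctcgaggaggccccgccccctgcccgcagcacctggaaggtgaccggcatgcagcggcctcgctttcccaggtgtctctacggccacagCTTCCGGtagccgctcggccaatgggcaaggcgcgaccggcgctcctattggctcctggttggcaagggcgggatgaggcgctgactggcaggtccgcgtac
Ndufs7 (chr10:80249199-80249448, plus strand, GRCm38.p6, no such word): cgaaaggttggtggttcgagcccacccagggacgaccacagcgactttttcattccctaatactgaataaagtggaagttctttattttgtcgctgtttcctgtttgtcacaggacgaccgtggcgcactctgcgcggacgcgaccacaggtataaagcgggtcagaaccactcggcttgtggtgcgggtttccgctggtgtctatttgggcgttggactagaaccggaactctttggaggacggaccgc
The NRF1 word of Atp5c1 begins 16 bases before the start and the ETS word of Atp5e 102 bases before it. The signals of these 3 genes are those given with their complexes, with Atp5c1 at 11396, Atp5e at 7196 and Ndufs7 at 1125 in the DCs.

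Markers of cell types and of dividing cells differed between the populations too. Macrophage markers summed to 154688 in the CX3CR1high macrophages and 13119 in the DCs, with 10 and 7 of 10 at or above the floor. DC markers summed to 38987 in the DCs (8 of 8 at or above the floor), 23756 in the CX3CR1- cells (7 of 8), and 5902 and 7571 in the CX3CR1high macrophages and CD11b+ cells (5 of 8 each). Of 12 cell cycle genes with a ratio, 8, 8 and 3 were 2-fold higher in the DCs than in the CX3CR1high macrophages, the CD11b+ cells and the CX3CR1- cells, with median log2 ratios of 1.37, 1.47 and 0.72. Over all genes the shares were 10.2%, 10.4% and 8.7%. The summed signal of the cell cycle list was 17140 in the DCs, of which Pcna made up 10933, and 9504 to 12005 in the others. Mki67 was highest in the CX3CR1- cells (2492 against 1299 in the DCs), and Mcm2 was lowest in the DCs (337). Fibroblast, muscle and endothelial markers summed to 5794 in the DCs and 18975 to 64885 in the others, with 7 of 14 at or above the floor in the DCs and 13 or 14 elsewhere. Neutrophil markers summed to 392 in the DCs, where 0 of 10 reached the floor, and to 1459 to 10169 in the others. Epithelial markers summed to 5007 in the DCs, 3466 in CD11b+ cells, 8571 in CX3CR1- cells and 20247 in CX3CR1high macrophages. B and plasma cell markers summed to 32568 in the DCs and 38895.5 to 88026.5 in the others. Monocyte markers summed to 23279.5 in the DCs, 6220 in CX3CR1high macrophages, 46497 in CD11b+ cells and 24930.5 in CX3CR1- cells. Neither these values nor the Gapdh 3' over 5' values, lowest in the DCs, were tested for a part in the respiratory chain result, and with 1 array each they cannot be told apart from the population.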

How the data were processed

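Biotin-labelled RNA was hybridised to Affymetrix 3' arrays, as the labels' protocols state. The authors deposited 1 linear signal intensity for each probe set. MAS5 made them, per the submitters' processing notes, and no version of it is stated. In these deposited intensity values each array had a trimmed mean of 500, with 2% cut from each end, so that each carried a scaling by the authors. No further scaling was applied. Probe sets naming several genes (691) or none (1555) and controls (64) were left out. For each gene 1 probe set was taken, that of highest mean log2 signal, with sets not ending in _x_at preferred. All 80 members were found by Entrez number in the RefSeq table, and 0 symbols changed. Pairs of populations were compared as ratios with the floor described above. The procedure was checked on simulated data with python 3.11.15, numpy 2.4.6 and pandas 2.3.3. That check required planted changes to be called only at 4-fold or more, which no member reached. It therefore does not measure how well changes of 2-fold are called.

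Named genes are every member called at 2-fold in a pair, the members nearest the median and with the widest range in each list, isoform families, members just inside or outside the limit and members whose probe sets disagree. Ndufb5, Ndufv1, Ndufs1, Ndufs7, Ndufaf4, Ndufaf5, Ndufaf7, Cox5a, Uqcrb, Atp5a1 and the named genes of other lists were added after their values were seen. The members, lists, pairs and limits were chosen with earlier results of these data known. There were 10 other settings chosen at the outset and 2 added after the data were seen, a scaling on abundant genes and the dimmest probe set above the floor. The background of abundant genes and the promoter words were also chosen after the data were seen.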

Additional observations from a re-analysis of the deposited data

How the results depend on the processing

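Over the 10 alternatives that change a ratio, the members' median log2 ratio ranged from 0.59 to 0.93 for DCs over CX3CR1high macrophages, 0.70 to 1.09 over CD11b+ cells and 0.62 to 0.90 over CX3CR1- cells. Counts of calls moved more, in 43 values. In that order of populations, members higher in the DCs numbered 36, 42 and 34 with equal array medians, 41, 48 and 44 at 1.5-fold (with 2, 3 and 3 lower) and 0, 0 and 0 at 4-fold. Without the shared probe set types 9 were higher than in the CX3CR1high macrophages, over fewer genes. Members lower in the DCs than in the CX3CR1high macrophages numbered 1 for a floor at the 25th percentile, 2 with no floor and 1 with a pseudocount. For CX3CR1high macrophages over CD11b+ cells the counts higher and lower were 1 and 1 at the 25th percentile, 2 and 1 with no floor and 2 and 1 at 1.5-fold, and 1 was higher with a pseudocount and with the mean over probe sets. For CX3CR1high macrophages over CX3CR1- cells they were 1 and 2 at the 25th percentile, 2 and 2 with no floor, 3 and 6 at 1.5-fold, 1 and 0 with a pseudocount or the mean over probe sets, and 2 and 0 without shared types. There, 0 were lower at 4-fold or with a floor at the 75th percentile, and 2 were higher with the dimmest probe set. For CX3CR1- cells over CD11b+ cells, 3 were higher at 1.5-fold and 1 with the mean over probe sets, without shared types or with the dimmest probe set.

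Of the members' ratios of 2-fold or more under the main processing, those of Cox5b and Ndufs8 changed sign in an alternative. Smaller ratios were not counted here, and some changed sign too. The DC ratio of Ndufs7 over the CX3CR1- cells was 0.792 on the probe set taken and 1.46 on the one left without shared types. That of Cox6a1 over the CD11b+ cells was 0.937 on the probe set taken and 1.59 on its dimmest. The log2 ratio of Cox5b over the CD11b+ cells became -0.10 as the mean over probe sets and -0.22 without shared types. Both values take in a Cox5b probe set that lies under the floor in all arrays but that of the CD11b+ cells (120.1), and the probe sets above the floor kept the DCs higher. That of Ndufs8 became -0.037, -0.58 and -0.77 with its dimmest probe set, for which the cause was not tested. No paired analysis was possible because each population has 1 array. Signals near the floor limit the ratios of the assembly factors and restricted isoforms.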

Other observations

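The probe sets that match several transcripts gave lower ratios than the plain ones. The median DC fold over the mean of the 3 others was 1.73 over 53 member probe sets of the plain _at type and 1.53 over 76 of the shared types. In 26 of 36 members with several probe sets above the floor, the dimmest had a higher DC ratio than the brightest. Neither was counted over all genes, so whether they are particular to the members was not tested. With the dimmest probe set, the median log2 ratios of abundant genes moved from 0.10, 0.05 and -0.03 to 0.14, 0.13 and 0.07. Those of the members moved from 0.62, 0.79 and 0.68 to 0.72, 0.82 and 0.69, in the order CX3CR1high macrophages, CD11b+ cells and CX3CR1- cells.

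The copper chaperone Cox17, which supplies complex IV, stood at 5538 in the DCs against 2709 in CX3CR1high macrophages, 6085 in CD11b+ cells and 7474 in CX3CR1- cells. Sco2, another copper protein of complex IV assembly, had 125, 368, 242 and 146 in the same order. Cox17 was lowest and Sco2 highest in the CX3CR1high macrophages, and both were picked after their values were seen.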
